A study of Danio rerio with 5 samples.

Results

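Gene expression in zebrafish exposed to formaldehyde was set against that in fish kept in the vehicle DMSO. Both groups were young adults of the AB wild-type line, held for 24 h without food, and every compound of the study was prepared in DMSO. Each group had 1 Affymetrix array, and 3 further arrays, for benzene, for toluene and for a mixture of the 3 compounds called the BTF mix here, give levels for context. With no replicates, no difference below carries a test or a spread. The sources used here do not give the tissue, the doses or how many fish an array holds, and the single entry for the sex of the fish names neither males nor females. A probe set is the group of short probes that measures 1 transcript. Levels are log2 values made with RMA, and a difference is the level on the formaldehyde array minus that on the DMSO array, so that a difference of 1 is 2-fold.

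Of 9716 probe sets with a level of 7.02 or more (the median over the table) on 1 of the 5 arrays or more, 371 were at least 2-fold apart. Of these, 150 (1.54%) were higher with formaldehyde and 221 (2.27%) were lower. Taking 1 probe set per gene, 256 of 6682 genes were apart, 93 higher (1.39%) and 163 lower (2.44%). The median difference of all 6682 genes was -0.02, and the counts of each gene group below are to be read against these shares. Over all 6682 genes, formaldehyde had the lowest level of the 4 arrays without the mix in 1944 and the highest in 1940. DMSO had the lowest in 1761. Counts of such ranks in the gene groups below are to be read against these.

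Formaldehyde is a reactive aldehyde that binds proteins and links DNA strands and proteins to each other. Cells also make it in their own metabolism, and they remove it by joining it to glutathione, after which the alcohol dehydrogenase encoded by adh5 oxidises the product and the esterase encoded by esd releases formate. Formate then enters the folate pathway of carbon transfer, while DNA damage of the kind formaldehyde causes is handled by the Fanconi anaemia pathway. The skin and gills of fish are in direct contact with the water.

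The arrays differed in ways that bear on these values. Over all probe sets, the correlation between the DMSO and formaldehyde arrays was 0.984. The formaldehyde array had correlations of 0.979 with benzene and 0.981 with toluene. Pairs among the DMSO, benzene and toluene arrays had higher values, from 0.987 to 0.992. The mix array stood apart, with correlations of 0.692 to 0.739. In pairs of arrays, 3.82% of probe sets were 2-fold apart between DMSO and formaldehyde, 3.098% between DMSO and benzene and 2.89% between DMSO and toluene. The share was 1.77% between benzene and toluene, 5.29% between benzene and formaldehyde and 5.002% between toluene and formaldehyde. No 2 arrays were treated alike. All 18 probe sets for hybridisation controls, which are added in fixed amounts, were higher on the formaldehyde array, by 0.02 to 0.42. The 24 probe sets for polyA controls, which are added before labelling, differed by -0.97 to 0.44, and 16 of them were higher. The excess of the 3' end over the 5' end of a transcript is a measure of RNA integrity and labelling. For muscle actin it was 6.02 with DMSO, 5.73 with formaldehyde and 3.401 with the mix on the log2 scale. For the control transcript GAPDH it was 0.51, 0.43 and 0.64 on the same 3 arrays. The muscle actin value rests on the dimmer of 2 probe sets for the 5' end, with levels of 7.70, 8.64 and 11.52 on these arrays. The brighter had levels of 10.46, 11.63 and 13.29, so the excess is smaller if taken from it. The part of these values in the results was not tested.

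Most transcripts that were lower with formaldehyde were lower than on all 3 other arrays without the mix. The formaldehyde level lay at least 1 below the DMSO, benzene and toluene levels in 149 of the 221 lower probe sets (67.4%). In 24 the DMSO level lay at least 1 above the other 3. The choice of these probe sets by a low formaldehyde level against DMSO favours both patterns. Of the 150 higher probe sets, the formaldehyde level stood at least 1 above the other 3 in 31, and the DMSO level stood at least 1 below the other 3 in 27. In these 150, formaldehyde held the highest of the 4 levels in 123 and DMSO the lowest in 113, which the choice of probe sets by this difference favours. The transcripts that were lower with formaldehyde were mostly those with a high level in the mix, whose array had the highest of the 5 levels in 153 of the 221 (69.2%), against 41.1% of all probe sets.

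At the threshold, the helicase gene pif1 at 1.004 and the vitamin B12 carrier gene tcnbb at -1.005 were just inside, and the peroxidase gene gpx8 at 0.998 and the myosin gene myo15b at -0.997 just outside. Among 864 genes with several probe sets, most of them not apart, the median gap between the differences was 0.19. A gap of at least 1 was found in 17. Of the 45 such genes with at least 1 probe set apart, 41 had every probe set of 1 sign. Only 13 of the 45 had every probe set apart in 1 direction, and 12 had a gap of at least 1. By mean level, the share of lower calls was 1.62% under 7, 1.73% from 9 to 10, 4.44% from 10 to 11, 6.45% from 11 to 12 and 3.14% above, so it did not keep rising with level.

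**Figure D1:**
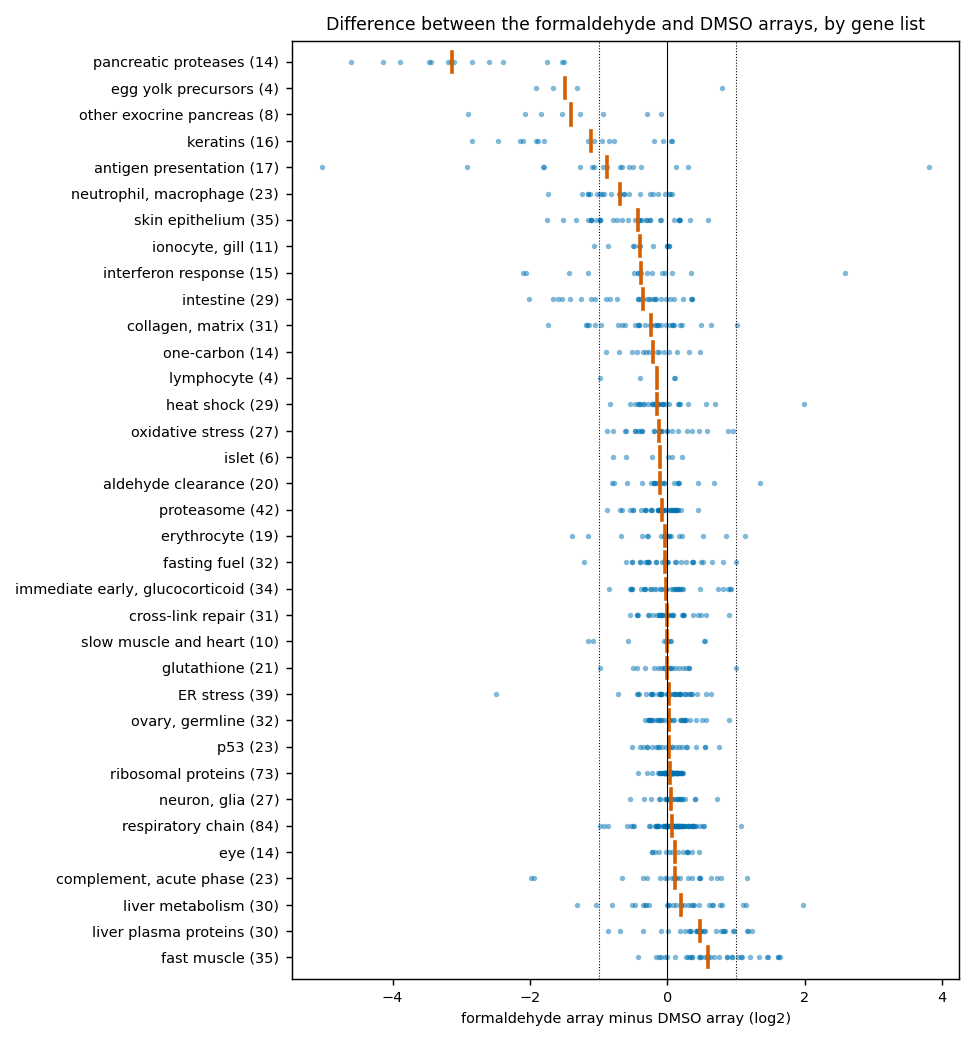
Difference between the formaldehyde and DMSO arrays (x axis, log2) for the genes of 35 lists (y axis, number of genes past the level filter in brackets). Each point is 1 gene, the bar is the list median and the dotted lines mark a 2-fold difference. The pancreatic proteases lie furthest to the left, all 14 beyond the dotted line, and fast muscle has the highest median, 0.60.

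Digestive enzymes of the exocrine pancreas were the most strongly lowered group. All 14 measured genes for pancreatic proteases were at least 2-fold lower with formaldehyde, with a median difference of -3.13 and a range from -4.60 to -1.51. In each of the 14, the formaldehyde array had the lowest level of the 5 and the mix array the highest. A highest level with the mix is not particular to lowered groups. It was found in 34 of 35 fast muscle and 30 of 30 liver plasma genes, which were mostly higher with formaldehyde, and in 2510 of all 6682 genes. These enzymes are made in acinar cells as inactive precursors, stored in granules and released into the gut with a meal.

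Among the enzymes that cut inside a protein chain, the chymotrypsinogen ctrb.1 had levels of 12.63 with DMSO, 13.91 with benzene, 13.65 with toluene, 8.03 with formaldehyde and 14.32 with the mix. That is a difference of -4.60, or 24.3-fold between formaldehyde and DMSO, and formaldehyde alone is low. The elastase cela1.6, which cuts next to small side chains, had levels of 13.27, 14.38, 14.19, 9.38 and 14.82 in the same order. The elastase ela2 had levels of 11.49, 13.15, 13.04, 8.02 and 14.03. Trypsin, encoded by prss1, activates the other precursors and had levels of 12.96, 14.05, 13.54, 9.84 and 14.48, a difference of -3.11. The chymotrypsin-like ctrl (-3.15) and the elastase ela3l (-3.19) had like differences, and the smallest were those of the elastases cela1.1 (-1.54) and cela1.5 (-1.51). Of these genes, cela1.5 also had the lowest level with DMSO, 7.42.

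The carboxypeptidases, which trim residues from the end of the chain, were likewise lowest with formaldehyde and highest with the mix. For cpa5 the levels were 10.93 with DMSO, 12.70 with benzene, 12.06 with toluene, 6.79 with formaldehyde and 13.41 with the mix, a difference of -4.14. The A-type enzymes cpa1 and cpa4 differed by -3.45 and -1.74. The B-type enzyme cpb1, which takes off basic residues, was measured by 2 probe sets that differed by -2.39 and -2.78. Several of these genes are neighbours in the genome: cpa1 and cpa5, ctrb.1 and ctrb.2, ela2 and ela2l, and cela1.6 and cela1.1 lie within 3 protein-coding genes of each other in RefSeq's gene order. Related enzymes are alike in sequence, and probes for 1 of them may bind another's transcript, so these genes are not independent measurements.

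Enzymes for fat and starch followed the proteases with smaller differences. Of 8 other exocrine genes, 5 were at least 2-fold lower and 0 higher, with a median of -1.40. The bile salt-activated lipase cel.1 had levels of 10.06, 11.82, 11.14, 7.16 and 12.98 on the DMSO, benzene, toluene, formaldehyde and mix arrays. The amylase amy2a, which splits starch, had levels of 11.16, 12.67, 12.22, 9.08 and 13.64. The granule proteins cuzd1.1 and sycn.2 differed by -1.83 and -1.53 and the phospholipase pla2g1b by -1.27. Members within 2-fold were dnase1 at -0.94, the second amylase gene amy2al1 at -0.29 and the creatine synthesis enzyme gatm at -0.09.

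Hormones of the endocrine pancreas, the islets, had smaller differences. Of 6 islet genes none was 2-fold apart. Insulin (ins) had levels of 7.69 with DMSO and 6.89 with formaldehyde, a difference of -0.80. Somatostatin (sst1.1) differed by -0.60 and glucagon (gcga) by -0.22. Only 2 of the 6 reached the level filter on the DMSO or formaldehyde array, so their levels here lie in the lower range of the scale. In RNA of a mixed sample, fewer cells of a type and less RNA per cell cannot be told apart, here or in any group below.

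**Figure D2:**
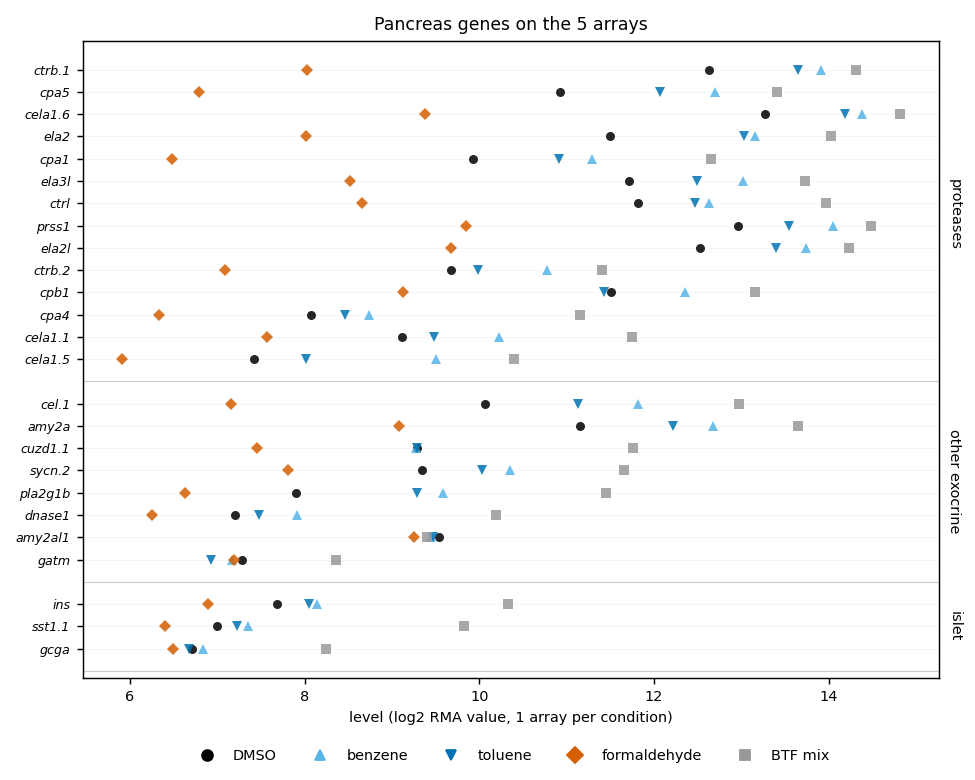
Levels of pancreas genes (x axis, log2 RMA value) on the 5 arrays, 1 symbol per array, with proteases, other exocrine genes and islet hormones in separate panels. For all 14 proteases the formaldehyde symbol is the leftmost and the mix symbol the rightmost.

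Keratins, the filament proteins of epithelia, were lower with formaldehyde. Of the 16 measured genes on the keratin list, 9 were at least 2-fold lower and none was higher to that extent, and the median was -1.11. Its 14 krt genes had a median of -1.01, and 7 of them were at least 2-fold lower. The other list members, icn and icn2, encode calcium-binding ictacalcins, which are not keratins. Formaldehyde had the lowest of the 4 levels without the mix in 14 of the 16, against 1944 of all 6682 genes. The skin keratin krt5 had levels of 11.37 with DMSO, 12.24 with benzene, 12.09 with toluene, 8.90 with formaldehyde and 13.46 with the mix. For krt91 they were 10.61, 11.87, 11.84, 7.77 and 13.42, a difference of -2.84, and its second probe set gave -3.37. In both, the formaldehyde level is far below the other 4, which rank in the order DMSO, toluene, benzene and mix. The keratins krt4 (-1.91), krt15 (-1.89) and krt97 (-1.79) came next. The ictacalcin genes icn2 and icn differed by -2.15 and -2.10.

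Not every keratin took part. The keratins of simple epithelia krt18a.1 and krt18b lay at 0.05 and -0.06, and their usual partner krt8 at -0.84, from 9.83 with DMSO to 8.99 with formaldehyde. The gene krt99 lay at 0.07. Of the keratins that were 2-fold lower, krt17 and krt91 are neighbours in the genome, as are krt15 and krt93.

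Other genes of the skin epithelium had smaller differences of the same sign. Of 35, 8 were at least 2-fold lower and none 2-fold higher. Their median was -0.43, and 28 had their lowest level of the 4 arrays with formaldehyde. The tight junction gene cldni, a claudin, had levels of 7.07 with DMSO, 9.10 with benzene, 9.15 with toluene, 5.31 with formaldehyde and 11.998 with the mix. DMSO thus lies between formaldehyde and the aromatic solvents, and the same order held for the annexin anxa1a, with 9.29, 10.81, 10.80, 8.18 and 12.87. Annexins bind membranes in the presence of calcium. Of 12 annexin genes past the filter, anxa1c (-1.52) was also 2-fold lower and anxa5b (1.15), with DMSO the lowest of the 5 arrays, was higher. Among other skin genes, the calcium-binding s100a10b differed by -1.33 and the claudins cldn23.1, cldnb and cldn3c by -1.11, -1.11 and -1.04. Of these claudins, cldn23.1 and cldn3c reached the level filter only with the mix. With DMSO they had levels of 5.23 and 6.05. The desmosome gene perp gave -1.15 on 1 probe set and 0.26 on a dimmer second one, so its probe sets disagree. Genes of ionocytes and gills had a median of -0.39 over 11, with only the mucin muc5.1 (-1.06, and -0.06 on a second probe set) apart.

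The intestine followed the same direction. Of 29 genes, 8 were at least 2-fold lower, none was 2-fold higher and the median was -0.35. The chitinase chia.1 had levels of 11.38 with DMSO, 12.01 with benzene, 12.29 with toluene, 9.36 with formaldehyde and 13.08 with the mix. Genes of the absorptive cell surface were among the lower ones: the cadherin cdh17 had levels of 8.16, 8.15, 8.02, 6.497 and 9.21, and the microvillus protein vil1 differed by -1.11. For cdh17 the DMSO, benzene and toluene levels are nearly the same and formaldehyde alone is low. The surface protein tm4sf4 differed by -1.59 and -2.08 on its 2 probe sets, the claudin cldn15la by -1.54, and the fatty acid-binding and bile acid-binding proteins fabp2 and fabp6 by -1.42 and -1.05. The gene chia.2 differed by -1.26.

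**Figure D3:**
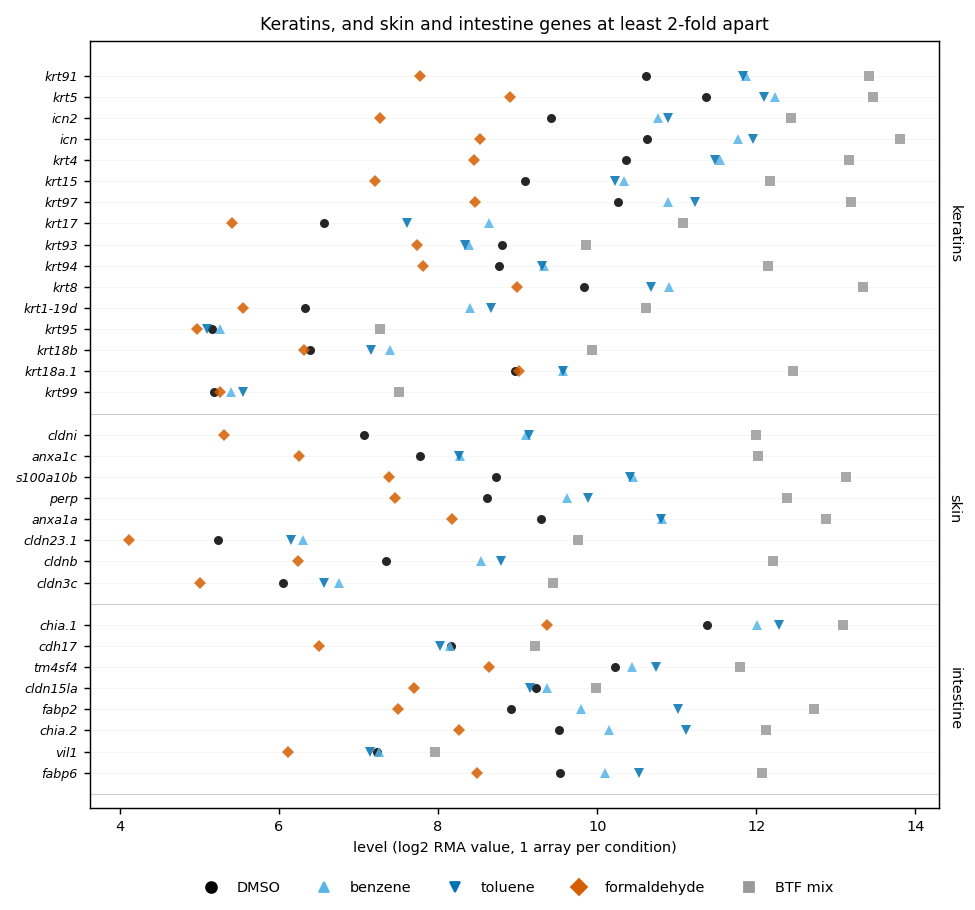
Levels (x axis, log2 RMA value) on the 5 arrays, 1 symbol per array, of all 16 measured genes on the keratin list, icn and icn2 included, and of the skin and intestine genes at least 2-fold apart. Except for the keratin krt99 and krt18a.1, the formaldehyde symbol is the leftmost of the 5, and the mix symbol is the rightmost throughout.

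Genes of the innate immune cells and of antigen presentation were lower with formaldehyde. For neutrophils and macrophages, 6 of 23 genes were lower by 2-fold or more and none higher, with a median of -0.68, and 19 had their lowest of the 4 levels with formaldehyde. Only 13 of these 23 reached the level filter on the DMSO or formaldehyde array. The collagenase mmp13a, which is also on the matrix list, had levels of 8.70, 9.07, 8.26, 6.97 and 12.50 on the DMSO, benzene, toluene, formaldehyde and mix arrays. Lysozyme (lyz), which breaks bacterial walls, had levels of 8.79, 9.05, 9.49, 7.54 and 12.92. The lysosomal membrane gene laptm5 differed by -1.15, the granulin grna.1 by -1.12 and the actin regulator arpc1b by -1.02. For mfap4.5, also at -1.15, the DMSO level of 9.31 was the highest of the 5 arrays and formaldehyde, at 8.16, was above benzene, at 7.43. The 4 measured lymphocyte genes had a median of -0.15 and none was apart.

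Antigen presentation shows fragments of proteins on the cell surface to lymphocytes, and its class II branch handles engulfed proteins. Of 17 antigen presentation genes, 7 were at least 2-fold lower and 1 was higher, with a median of -0.88. The invariant chain gene cd74a had levels of 11.40 with DMSO, 11.89 with benzene, 12.21 with toluene, 9.59 with formaldehyde and 13.45 with the mix. Its paralogue cd74b differed by -1.80. The class II chain mhc2daa had levels of 8.42, 8.22, 8.71, 5.51 and 10.25, a difference of -2.92. The partner of class I chains, b2m, differed by -1.27, the proteasome activator psme2 by -1.10 and the protease ctsl.1 by -1.07.

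Levels of 2 class I chains were high on some arrays and near the bottom of the scale on others. The gene mhc1ufa had levels of 9.02 with DMSO and 11.17 with the mix, and of 3.83, 3.72 and 3.99 with benzene, toluene and formaldehyde. The gene mhc1zba had levels of 8.67 with toluene and 7.71 with formaldehyde, and of 3.90, 4.001 and 4.33 with DMSO, benzene and the mix. Differences of -5.03 and 3.81 therefore compare a level near the bottom of the scale with a high one.

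Interferon-response genes were lower to a lesser extent. Of 15, 4 were at least 2-fold lower and 1 higher, with a median of -0.38. The ubiquitin-like isg15 had levels of 7.48, 6.70, 5.71, 6.05 and 8.75 in the order DMSO, benzene, toluene, formaldehyde and mix, so that formaldehyde was not below toluene. The same holds for ifi44a6, at 7.51, 7.66, 4.61, 5.45 and 7.14. For irg1l, a gene of immune metabolism, levels were 7.65, 6.62, 5.94, 5.55 and 9.47 in the same order. Formaldehyde was the lowest, with toluene close to it, and DMSO lay at least 1 above benzene, toluene and formaldehyde. The gene ifi44a1 differed by -1.15. The TRIM family gene ftr81 went the other way, at 2.59. In the complement and acute-phase list of 23 genes, with a median of 0.11, the lectin mbl2 and the factor D gene cfd were lower, at -1.99 and -1.94. Liver-made hpxa was higher there, at 1.16, and c4 and c9 lay at 0.78 and 0.72.

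Collagen and matrix genes were mixed. Of 31, 5 were at least 2-fold lower, 1 was higher and the median was -0.24, and 14 reached the level filter on the DMSO or formaldehyde array. Fibrillar collagen col1a1a had levels of 8.74, 9.19, 9.58, 7.59 and 11.88, and the collagen-binding sparc of 7.64, 8.66, 8.93, 6.46 and 11.29, in the order DMSO, benzene, toluene, formaldehyde and mix. Formaldehyde is the lowest of the 5 in both. The genes col17a1b and postnb gave -1.18 and -1.06, but -0.18 and -0.02 on a second probe set. The cartilage matrix gene matn1 was higher, at 1.02.

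Egg yolk precursors, which the liver makes under oestrogen for uptake by the oocyte, were lower. The gene vtg2 had levels of 14.08 with DMSO, 14.21 with benzene, 14.09 with toluene, 12.76 with formaldehyde and 5.96 with the mix. For vtg4 they were 11.52, 11.88, 12.69, 9.85 and 5.098, and vtg3 had levels of 9.84 with DMSO, 10.54 with toluene, 7.93 with formaldehyde and 5.07 with the mix. In all 3 the formaldehyde level lay at least 1 below DMSO, benzene and toluene, and the mix lay far below all 4. The protease nots, of the same list, lay at 0.80.

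The listed oocyte genes themselves lay within 2-fold. Of 32 ovary and germline genes none was 2-fold apart, their median difference was 0.03, and their median level was 12.91 with DMSO, 12.80 with formaldehyde and 6.49 with the mix. The germ cell factor nanos3 had the largest difference, 0.90. The 4 arrays without the mix thus hold abundant oocyte RNA, whatever the entry for sex. The 2 compared arrays hold the listed genes at like levels. Outside the list, some genes abundant with DMSO and low with the mix were apart, chosen after their values were seen. The gene zgc:173544 had levels of 13.23 with DMSO, 9.64 with formaldehyde and 5.98 with the mix. For zgc:171776 they were 13.67, 9.09 and 5.64, with benzene at 8.97 and toluene at 8.997. The gene zgc:153499 went the other way, at 1.04. Whether these are oocyte genes was not tested.

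Fast skeletal muscle genes were higher with formaldehyde. Of 35, 10 were higher by 2-fold or more and none was lower to that extent, and their median was 0.60. In 27 of the 35 formaldehyde had the highest of the 4 levels without the mix, and in 23 DMSO had the lowest. Over all 6682 genes these counts were 1940 and 1761. The calcium buffer parvalbumin, pvalb2, had levels of 12.14 with DMSO, 12.92 with benzene, 13.36 with toluene, 13.78 with formaldehyde and 14.62 with the mix. The thin filament switch tnnc2.2, a troponin, had levels of 11.33, 11.73, 11.90, 12.94 and 13.68. In both, the arrays rank in the order DMSO, benzene, toluene, formaldehyde and mix. The troponin tnni2a.3 differed by 1.62, the thick filament gene mybpc2b by 1.46, the calcium pump atp2a1l by 1.34, the tropomyosin tpma by 1.204 and the myosin light chains myl1 and mylz3 by 1.09 and 1.07. Of 9 parvalbumin genes past the filter, pvalb2, pvalb1 and pvalb4 were 2-fold higher, and the last of these had its lowest level with benzene. Many of these genes lie near the top of the scale, where array levels can be compressed, which was not tested here.

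Slow muscle and heart genes had a median near 0, at -0.002 over 10 genes. The cardiac myosin light chain myl7 had levels of 7.58, 7.91, 8.27, 6.43 and 10.93 in the order DMSO, benzene, toluene, formaldehyde and mix, a difference of -1.15. The myosin light chain cmlc1 differed by -1.08. The slow myosin heavy chain smyhc1 lay at 0.55 and the cardiac tnnt2a at 0.01. Of the 10 genes, 5 reached the filter on the DMSO or formaldehyde array.

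Plasma proteins of the liver were mostly higher. Of 30, 26 lay above 0, 3 were at least 2-fold higher, none was 2-fold lower and the median was 0.47. Formaldehyde had the highest of the 4 levels in 25. The lipid carrier apom had levels of 9.55 with DMSO, 9.71 with benzene, 9.16 with toluene, 10.78 with formaldehyde and 12.42 with the mix. Antithrombin (serpinc1) had levels of 7.70, 7.90, 7.61, 8.88 and 10.08, and differed by 1.18. The haem carrier hpxa, at 1.16, was the third. The fibrinogen chains fgb and fgg lay at 0.96 and 0.84, vitronectin (vtnb) at 0.97 and plasminogen (plg) at 0.81. Against this direction, the apolipoproteins apoeb and apoea lay at -0.86 and -0.69.

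**Figure D4:**
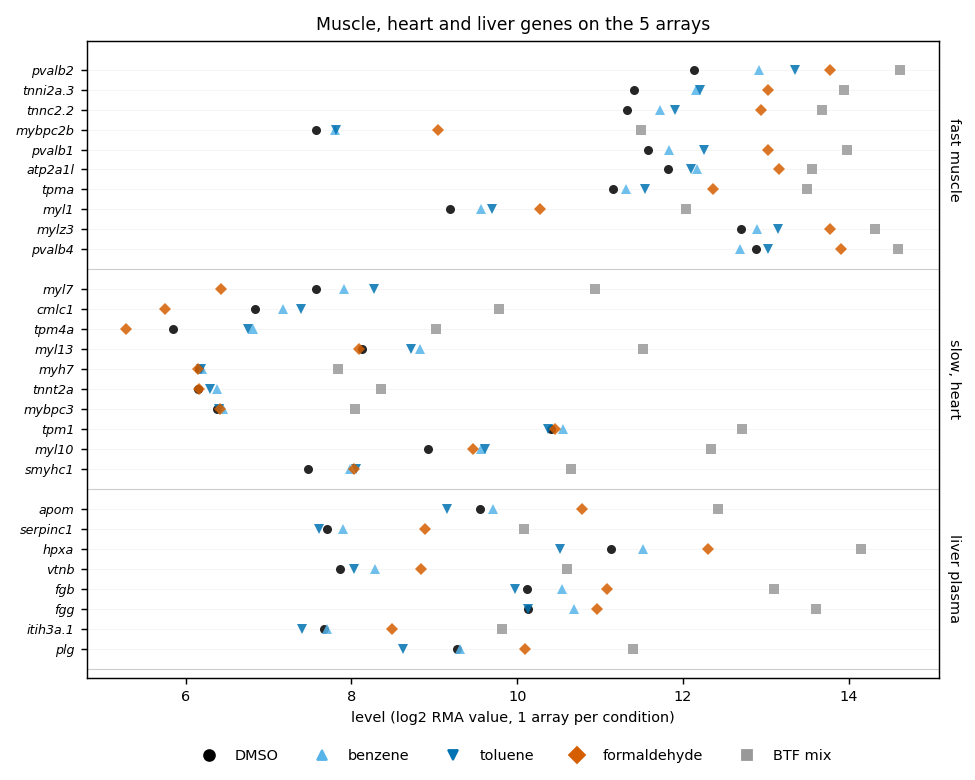
Levels (x axis, log2 RMA value) on the 5 arrays, 1 symbol per array, for the fast muscle genes at least 2-fold apart, the 10 slow muscle and heart genes and 8 liver plasma genes. In the fast muscle panel the formaldehyde symbol lies to the right of the DMSO, benzene and toluene symbols for all 10 genes, and for myl7 and cmlc1 it lies to their left.

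Metabolic enzymes of the liver went both ways. Of 30, 3 were 2-fold higher and 2 lower, and the median was 0.20. The tyrosine aminotransferase tat had levels of 7.79, 7.27, 7.38, 8.94 and 10.61, and the creatine synthesis enzyme gamt of 10.47, 10.49, 10.47, 11.58 and 12.53, in the order DMSO, benzene, toluene, formaldehyde and mix. Both stand out with formaldehyde among the first 4 arrays. The glutamine synthetase glula (-1.31) and the urea cycle enzyme ass1 (-1.04) were lower. The cytochrome P450 cyp2k6 had levels of 6.22, 6.07, 6.43, 8.20 and 5.12, so only the formaldehyde array was high, and it was the only one of the 15 largest increases with that pattern alone. Of 24 cyp genes past the filter, cyp24a1, which inactivates vitamin D, and cyp2x7 were also 2-fold higher, at 1.39 and 1.18, but a second cyp24a1 probe set gave 0.34.

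The direct enzymes of formaldehyde removal, adh5 and esd, lay within 2-fold. Of 20 genes for aldehyde and formaldehyde clearance, 1 was 2-fold higher and none lower, with a median of -0.10. The key enzyme adh5 had levels of 10.78 with DMSO, 10.71 with benzene, 10.70 with toluene, 10.61 with formaldehyde and 11.43 with the mix, a difference of -0.17. Its partner esd had levels of 9.24, 9.60, 9.61, 9.91 and 9.40, a difference of 0.67 with DMSO the lowest. Mitochondrial aldehyde dehydrogenase aldh2.2 lay at -0.08. The member that was apart was the alcohol dehydrogenase adh8b, with 7.99, 8.96, 9.10, 9.34 and 10.26, where benzene and toluene also lay about as high. The largest differences the other way were those of aldh9a1a.1 (-0.81), aldh18a1 (-0.77) and aldh7a1 (-0.59).

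The folate pathway, glutathione and oxidative stress genes held no member 2-fold apart. In the folate list of 14 genes, with a median of -0.21, the largest differences were those of the glycine cleavage gene gcshb (-0.89) and the purine synthesis enzyme gart (-0.70), and mthfd1b, shmt2, mthfd2 and the thymidylate synthase tyms lay at -0.51, -0.11, 0.03 and 0.48. In the glutathione list of 21 genes, gpx8 lay at 0.998 and the glutathione reductase gsr at -0.98. In the list of 27 oxidative stress genes, the selenium carrier selenop2 lay at 0.96, prdx5 at -0.88, thioredoxin txnb at -0.79 and the redox enzyme nqo1 at 0.07. Peroxiredoxin prdx1 lay at 0.89 on its brightest probe set and at 1.06 and 1.18 on the others, with levels on the brightest of 8.93, 9.48, 9.43, 9.82 and 10.81 in the same order of arrays.

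DNA cross-link repair and damage-response genes also lay within 2-fold. Of 31 repair genes none was apart and the median was -0.01. The recombination factor rad51ap1 had levels of 7.14, 7.57, 7.56, 8.03 and 6.32, a difference of 0.89, and the nuclease gene mus81 lay at -0.54. The central Fanconi gene fancd2 was not among the measured genes. Of 23 p53 pathway genes, with a median of 0.03, the largest differences were those of the survival factor mcl1b (0.75), the p53 inhibitor mdm2 (0.56) and its relative mdm4 (0.54).

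Of the genes on the heat shock and endoplasmic reticulum stress lists, 2 were apart. In the heat shock list of 29 genes, with a median of -0.15, hspa4a of the Hsp110 family had levels of 6.83 with DMSO, 8.60 with benzene, 8.59 with toluene, 8.82 with formaldehyde and 8.49 with the mix, so that DMSO alone was low. The inducible hsp90aa1.2 lay at -0.84 and hspb6 at 0.69. The chaperone gene hsc70, which is not on the list and was chosen after its values were seen, had levels of 7.66, 8.36, 7.96, 9.19 and 9.697 in the same order, a difference of 1.53. In the endoplasmic reticulum stress list of 39 genes, with a median of 0.02, the disulphide isomerase pdia6 had levels of 10.75, 8.59, 10.48, 8.25 and 9.59, so that benzene was nearly as low as formaldehyde. The stress regulators atf4a and atf4b lay at -0.72 and 0.64.

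Among the largest single increases, a low DMSO level was common. Of the 15 largest among named genes, the DMSO level stood at least 1 below the benzene, toluene and formaldehyde levels in 8, the formaldehyde level stood above the rest in 1, and both held for ftr81. The translation-related gene mif4gda had levels of 5.15, 8.92, 7.004, 9.71 and 6.30 in the order DMSO, benzene, toluene, formaldehyde and mix. The homeobox gene dlx6a had levels of 5.002, 6.81, 9.19, 9.28 and 6.02, and the lysine breakdown enzyme gcdhb was higher by 3.12. For the gene spata2l, at 3.65, the other probe sets gave 1.71, 2.35 and 0.90. Others were ipcef1 (3.12), rundc3ab (2.87), foxa (2.25), svbp (2.07), the amino acid transporter slc38a5b (1.79) and the collagen-modifying enzyme plod3 (1.73). In contrast, of the 15 largest decreases, the formaldehyde level stood at least 1 below the DMSO, benzene and toluene levels in 13.

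**Figure D5:**
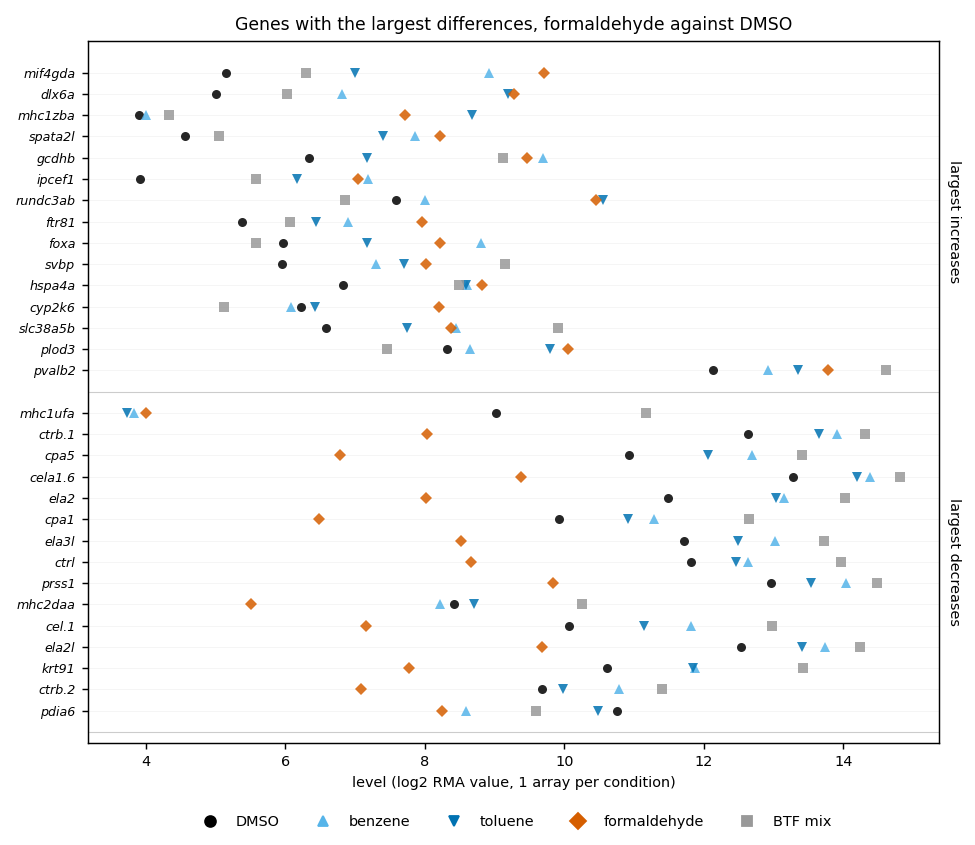
Levels (x axis, log2 RMA value) on the 5 arrays, 1 symbol per array, of the 15 named genes at each end of the differences. Among the increases the DMSO symbol is often alone on the left, and among the decreases it is the formaldehyde symbol in all but mhc1ufa and pdia6.

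Some lower genes belonged to no list and were chosen after their values were seen. The water channel aqp3a had levels of 7.34 with DMSO, 9.18 with benzene, 8.82 with toluene, 5.11 with formaldehyde and 11.26 with the mix. The actin-binding thymosin tmsb1 had levels of 10.29, 11.42, 11.36, 7.84 and 13.29, and the secreted ependymin epd of 9.36, 10.49, 10.42, 7.28 and 12.53. These 3 share the order formaldehyde, DMSO, then toluene and benzene, then mix, seen for the pancreatic elastases. The neighbouring prostaglandin synthase genes ptgdsb.1 and ptgdsb.2 differed by -2.21 and -1.36. The selenoprotein genes selenow2a and selenow2b, also neighbours, lay at 1.14 and 1.011, with DMSO the lowest of the 5 in both, but a dimmer selenow2b probe set gave 0.22. Of 248 of the 256 genes apart that could be placed in RefSeq's gene order, 48 lay within 3 protein-coding genes of another such gene, in 23 clusters, of which 15 held differences of 1 direction only. The same counts for genes drawn from all those past the filter were not made. As 163 of the 256 genes were lower, clusters of 1 direction are favoured in any case, so nothing is concluded from these counts.

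Housekeeping functions and several tissues lay close to 0. None of 73 ribosomal protein genes was apart, with a median of 0.05, and none of 42 proteasome genes, with a median of -0.08. Of 84 respiratory chain genes, with a median of 0.07, 1 was higher, the complex I gene ndufs6 at 1.08. The listed neuron and glia genes (27, median 0.06) and eye genes (14, median 0.11) held no member apart. The lens crystallin genes crygm2f, crygs1 and crygs2 are not on the eye list and were chosen after their values were seen. They were 2-fold higher, at 1.27, 1.06 and 1.05. In the erythrocyte and haem list of 19 genes, with a median of -0.04 whose sign changed under other normalizations, the haem synthesis enzyme alas1 (-1.39) and the carbonic anhydrase cahz (-1.15) were lower and the muscle and red cell gene tmod4 (1.14) was higher. Among 34 early-response and glucocorticoid genes none was apart and the median was -0.02, with 16 above 0 and 18 below. Their differences ran from -0.85 to 0.92, with klf9, cebpd and fkbp5 at 0.92, 0.91 and 0.88. Among 32 genes of fasting metabolism, fatty acid oxidation gene hadhaa was lower, at -1.21, and the muscle breakdown ligase trim63a lay at 0.996. For hadhaa the toluene level, 8.49, was nearly as low as the formaldehyde level, 8.35.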

How the data were processed

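Total RNA of young adult zebrafish was labelled with the 3' IVT Express kit, per the labels' protocols, and hybridised to 1 Affymetrix array for each of 5 conditions. The deposited table of log2 values has 1 row per probe set and 1 column per array. The submitters' processing notes name RMA, Affymetrix Expression Console 1.1 and MAS5, whose role the sources used here do not give. RMA corrects background, makes the arrays' distributions alike and summarises probes, so values depend on all arrays together. For 21.9% of probe sets, 2 or more arrays share the same value. Precision is limited by having 1 array per condition.

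Control probe sets, 115 of 15617, were left out. Of the other 15502, 10795 had exactly 1 gene symbol in the platform annotation, 135 several and 4572 none, and 10711 were updated through Entrez identifiers with RefSeq's gene table (assembly GRCz12tu). Probe sets entered with a level of at least 7.02, the median over the table, on 1 array or more. A gene was represented by its probe set with the highest mean. Differences were computed in Python 3.11.15 with pandas 2.3.3, and limma 3.58.1 gave the alternative normalizations. The steps were tested on simulated data.

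The members, the 35 gene lists and the alternatives were chosen with earlier results of these data known. After the values were seen, 3 entries whose genes do not belong by name were taken out: polr1g (listed as cd3eap) from the lymphocyte list, gfm1 from the ionocyte list and S6 kinase genes from the ribosomal list. With them, the medians are 0.09 in place of -0.15, -0.40 in place of -0.39 and 0.04 in place of 0.05. Named genes were the 15 largest increases and decreases with a usual name, up to 8 members of each list with at least 3 members apart or a median at least 0.5 from 0, with up to 3 against its direction, the leading members of the clearance, folate, glutathione, oxidative stress, repair, p53, heat shock and endoplasmic reticulum lists, and families with at least 3 members apart. Some of the genes so chosen are left out, and some members of the other lists are added. Some log2 values ending in 0 are given to 3 decimals. No sequences were used here.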

Additional observations from a re-analysis of the deposited data

Results flagged for a closer look

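The muscle actin probe sets, which the manufacturer places on the array as a control and which stayed out of the counts, showed a signal like that of the muscle genes. A 5' probe set of acta1 had levels of 10.46 with DMSO, 10.79 with benzene, 11.14 with toluene, 11.63 with formaldehyde and 13.29 with the mix, a difference of 1.16 between formaldehyde and DMSO. The other acta1 control probe sets differed by 0.65, 0.94 and 0.95. This rests on 1 array per condition and was not tested.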

How the results depend on the processing

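Quantile normalization over the 5 arrays or over the 4 without the mix, cyclic loess, no filter on level, a filter at the 75th percentile and a filter on the DMSO and formaldehyde arrays alone kept the counts of higher and lower probe sets and of lists with a median at least 0.5 from 0 within 1.5 times of 150, 221 and 6. The count of 6 is among the 33 lists with at least 5 genes past the filter. The egg yolk list, with 4 such genes and a median of -1.49, was left out of it and of the recomputed medians. Against the mean of benzene and toluene, 357 probe sets were lower. Against the mean of DMSO, benzene and toluene, 93 were higher and 10 lists lay at least 0.5 from 0. Medians were recomputed for the 14 lists with at least 5 genes past the filter and at least 3 members apart. Of these 140 values, 113 moved by at most 0.19, 23 by more and 4 changed sign. All 4 were of the erythrocyte list, at 0.0214 and 0.037 after quantile normalization of 5 and 4 arrays. The others were 0.00965 after cyclic loess and 0.012 with the filter on the compared arrays. The cause was not tested. The protease median ran from -3.92 to -3.13, the keratin list median from -2.65 to -1.04 and the fast muscle median from 0.45 to 0.76. Other medians moved by over 1.5 times and kept their sign: other exocrine genes from -2.10 to -0.94, skin from -1.24 to -0.35, intestine from -1.06 to -0.25 and matrix from -0.44 to -0.13. In these 4 the lowest value was against the mean of benzene and toluene. Antigen presentation ran from -0.99994 to -0.56, interferon from -0.46 to -0.23, complement from 0.11 to 0.30 and liver metabolism from 0.09 to 0.25. With the 3 list entries put back, an alternative added after the data were seen, the number of lists at least 0.5 from 0 was again 6. No paired analysis was possible because each condition has 1 array and no result comes from a test. Levels near the bottom of the scale limit the islet, leukocyte and heart genes, and part of several other lists. The level filter was reached on the DMSO or formaldehyde array by 11 of 16 keratin list, 24 of 35 skin and 19 of 29 intestine genes. For ionocyte, neuron and eye genes the counts were 5 of 11, 11 of 27 and 8 of 14. The rest passed it only on other arrays.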
